A study of Mus musculus with 4 samples.

Results

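The genes described here make and break down the second messengers cAMP and cGMP, or carry their signal as protein kinases. They were chosen by name: every non-control probe whose gene name in the scanner files was Adcy, Pde or Gucy with its number or suffix, Prkg1 or Prkg2, Prkaca or Prkacb, or began with Prkar. This gave 49 of 28306 gene names and 106 of 41174 probes. By role they were 10 adenylyl cyclases, 6 guanylyl cyclase genes, 18 phosphodiesterase enzymes, 6 subunits of the photoreceptor phosphodiesterase, 6 subunits of protein kinase A, 2 cGMP-dependent kinases, and myomegalin, whose symbol Pde4dip matched although the protein is an anchor and no phosphodiesterase. Pde12, whose 2 probes carry another name in the files, lay outside the rule.

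RNA was compared between primary aortic smooth muscle cells of the genotype Atg7F/F SM22α-Cre+ and those of the genotype Atg7+/+ SM22α-Cre+, on mouse strain C57LB/6 as the labels spell it. Both genotypes therefore carried Cre recombinase under a promoter of smooth muscle cells, that of SM22α. The Atg7 protein is an enzyme that autophagosome formation requires. The cells had been cultured in DMEM/F-12 medium with 10% fetal bovine serum and were used at passages 4 to 10, so they had been kept in culture for some time. The labels do not give ages, the passage of each sample or whether animals were pooled. Each genotype had 2 biological replicates. The extracts of one replicate number were hybridised together on 2 two-colour arrays with the dyes swapped, and these 2 arrays were counted as 1 replicate, which gave 4 arrays and n = 2. Nothing in the labels says how the cultures with one number are related beyond that.

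Adenylyl cyclases make cAMP when hormone receptors activate them through G proteins, and guanylyl cyclases make cGMP, in smooth muscle chiefly in response to nitric oxide and natriuretic peptides. cAMP activates protein kinase A and cGMP activates the cGMP-dependent kinases, and in vascular smooth muscle both pathways relax the cell and restrain its growth. Phosphodiesterases hydrolyse one or both messengers and so set how long and where in the cell the signal lasts.

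The results turn on a few 60-base probes, so probes of 4 genes are shown as the scanner files list them, 5′ to 3′, with mm9 coordinates. They belong to the gene with the smallest p (Adcy4), the gene whose probes disagreed most (Pde6h), and genes that differed in 1 replicate and not in the other (Gucy1a3 and Pde1a). Without an annotation of that build, no exon or untranslated region is assigned to them.
Adcy4, chr14:56388004-56388063, minus strand: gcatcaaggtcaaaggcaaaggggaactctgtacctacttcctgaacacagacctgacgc
Pde6h, chr6:136909707-136911753, plus strand: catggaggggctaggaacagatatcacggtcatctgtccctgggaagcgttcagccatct
Gucy1a3, chr3:81898619-81898678, minus strand: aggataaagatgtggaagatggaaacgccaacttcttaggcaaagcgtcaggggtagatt
Pde1a, chr2:79705818-79705877, minus strand: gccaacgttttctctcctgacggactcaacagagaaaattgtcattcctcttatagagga
The 60 bases of the Pde6h probe are spread over 2047 bases of the genome, so this probe crosses an exon junction. The strand is read from the order in which the files list the start and end.

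Atg7 itself was lower in Atg7F/F on every array. Of its 2 probes 1 was well above background, and it had log2 ratios of Atg7F/F over Atg7+/+ of -1.26, -1.09, -0.96 and -1.57 on the 4 arrays, with a mean of -1.22 ± 0.07 (SD, n = 2) and limma p-values of 6.05e-04 before and 0.935 after adjustment. Whether that probe lies in the deleted part of the gene was not examined here. The share of spots well above background was 43.3% to 45.5% per channel, and 0 spots were saturated. Of 10 smooth muscle markers 9 were measured, among them Acta2, Myh11 and Tagln, and Myocd, a defining coactivator of that lineage, was detected in 5 of 8 channels by its better probe and so was not tested. Markers of other cells were present too. All 20 endothelial markers, 11 of 12 fibroblast markers and 7 of 11 neural and Schwann cell markers were measured. Of 16 macrophage and leukocyte markers 7 were measured, among them Cd68, Cd14 and Csf1r, while 7 others, Ptprc and Adgre1 included, were well above background in no channel. Of 10 epithelial and mesothelial markers 3 were measured, Krt18 and Krt19 among them, while 3 others, Epcam included, were well above background in no channel.

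Of the 49 genes, 33 had a probe that was well above background on all 4 arrays in the channels of at least 1 genotype, which was the condition for testing. The other 16 were not tested. Of these, 15 had no probe well above background in any of the 8 channels: the cyclases Adcy8, Adcy10, Gucy1b2, Gucy2e and Gucy2f, and the phosphodiesterases Pde1c, Pde4c, Pde5a, Pde6a, Pde6b, Pde6c, Pde7b, Pde8b, Pde9a and Pde11a. Pde5a encodes the cGMP-hydrolysing target of sildenafil, and neither of its 2 probes was detected in these cultures. Adcy10 is the soluble, bicarbonate-stimulated cyclase, and Gucy2e, Gucy2f, Pde6a, Pde6b and Pde6c are photoreceptor genes. The 16th was Prkar1a, the type I regulatory subunit of protein kinase A, whose single probe was well above background in 2 of 4 channels of Atg7F/F and 2 of 4 of Atg7+/+.

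No gene among the 33 passed the test. With limma's moderated test on the 2 replicates, 0 of 33 were called higher and 0 of 33 called lower at the adjusted threshold of 0.05, where the share over all 12358 genes tested was 0% in each direction. The smallest adjusted p was 0.385 over all genes and 1.00 among the 33. At an unadjusted p below 0.05, 0 of the 33 were higher, against 1.34% of all genes, and 2 were lower (Adcy4 and Prkar2a), against 1.64% of all genes. None of the alternative fits that kept both replicates called any of the 33. The fit that took all 4 arrays and treated the pair as random put 2 of the 33 higher at an unadjusted p below 0.05, against 3.32% of all genes, and 4 lower, against 2.96%. The number of replicates, 2, limits the precision, and the main test had 3.18 degrees of freedom.

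The genes had no common direction. Their median log2 ratio was 0.04, against 0.00 over all genes tested. Log2 ratios were above 0 on all 4 arrays for 7 of 33, against 10.6% of all genes, and below 0 on all 4 arrays for another 7, against 9.93%. On average 2 were at least 0.5 log2 units higher in Atg7F/F (Prkar2b and Prkg2), against 1.36% of all genes, and 2 were at least 0.5 lower (Adcy4 and Pde6h), against 1.06%. Signals of the 4 extracts, averaged over both dyes, separated the genotypes for 11 genes. Both Atg7F/F extracts lay above both Atg7+/+ extracts for 5 (Adcy3, Adcy6, Gucy1b3, Gucy2c and Pde4a), against 11.4% of all genes. They lay below both for 6 (Adcy4, Adcy7, Pde10a, Pde4d, Pde6h and Prkaca), against 10.2%. Of these genes, Adcy3 and Adcy6 had ratios whose sign followed the dye, and Pde4d was tested only through Atg7+/+.

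**Figure D1:**
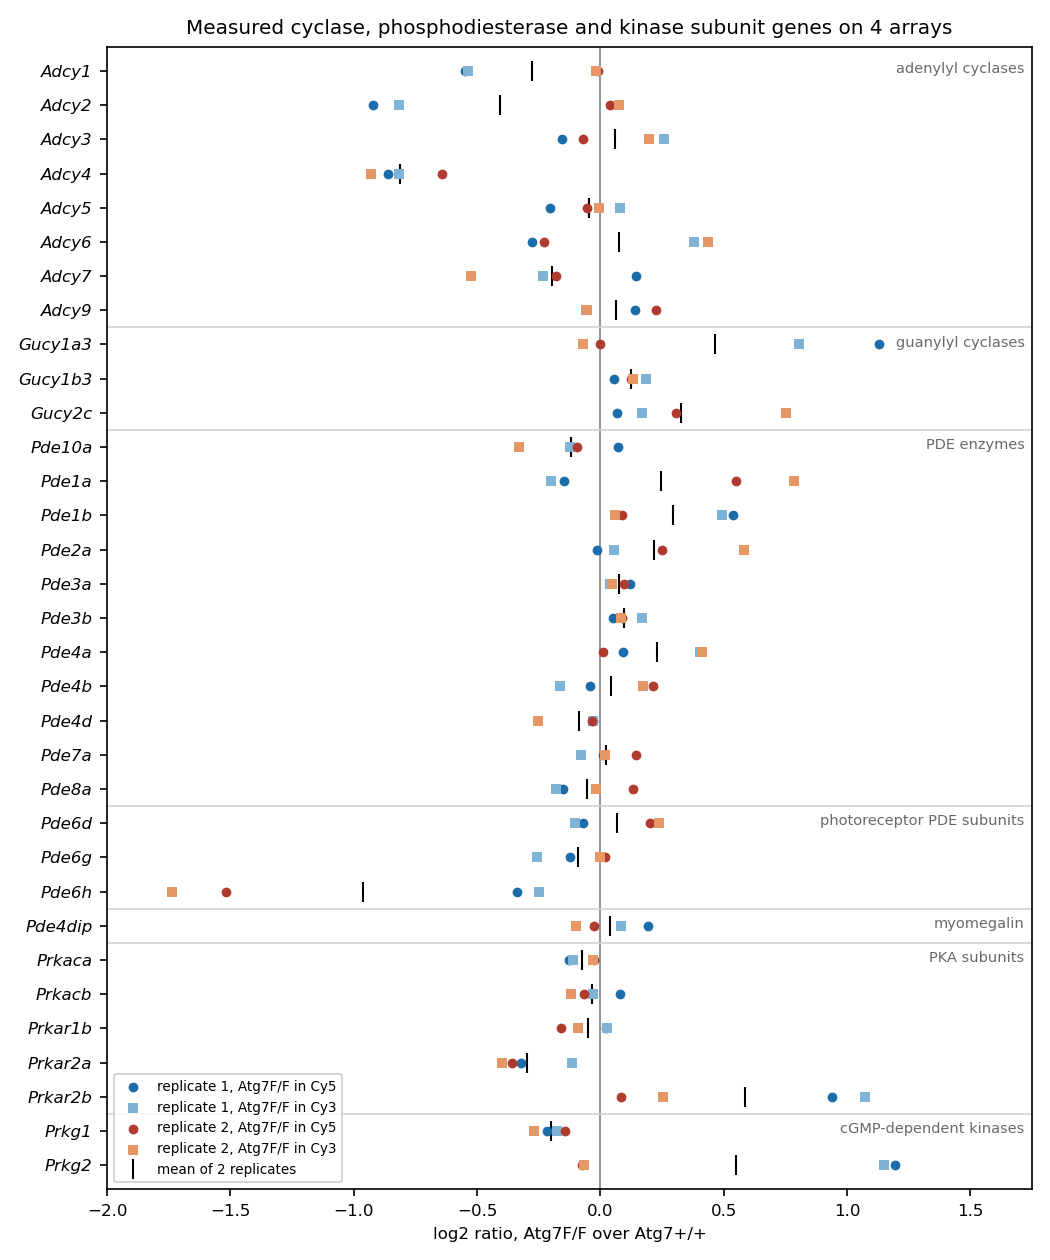
Log2 ratio of Atg7F/F over Atg7+/+ (horizontal axis) on each of the 4 arrays for the 33 measured genes, grouped by role from top to bottom. Circles are arrays with Atg7F/F in Cy5 and squares arrays with Atg7F/F in Cy3. Colours give the replicate, and the black tick is the mean of 2 replicates. Adcy4 lies between -0.93 and -0.64 on every array, whereas Prkg2, Gucy1a3 and Adcy2 lie away from 0 in replicate 1 alone.

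Of 10 adenylyl cyclases 8 were measured, with a median of -0.12. On all 4 arrays 0 had a ratio above 0, against 10.6% of all genes, whereas 2 (Adcy1 and Adcy4) were below 0, against 9.93%. Adcy4 encodes a cyclase that responds to G protein beta-gamma subunits and is not stimulated by calcium. It had 1 probe on the arrays, so agreement between probes could not be checked. Raw intensity in Cy5 was 496 and 485 in the 2 Atg7F/F extracts, against 826 and 891 in the 2 Atg7+/+ extracts, and in Cy3 it was 341 and 346 in Atg7F/F, against 629 and 706 in Atg7+/+. The genotypes did not overlap in either dye. The log2 ratios on the 4 arrays were -0.86, -0.82, -0.64 and -0.93, with a mean of -0.81 ± 0.04 (SD, n = 2), a 1.76-fold lower signal in Atg7F/F. In limma the unadjusted p was 0.00195 and the adjusted p 1.00, so the difference was much larger than the spread between replicates but did not pass the test across all genes. It lay between -0.96 and -0.76 under every other processing of both replicates, with the lowest adjusted p, 0.141, in the fit that took all 4 arrays and treated the pair as random.

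Most markers of endothelial cells also had ratios below 0. Of the 20 measured, 14 were below 0 on all 4 arrays, as were 9.93% of all genes, and 0 were above, with a median of -0.29 and 0 that passed the adjusted test. One of the 14, Kdr, was tested only through its level in Atg7+/+, and without it 13 of 19 were below 0 on all 4 arrays. Icam2 (-0.64 ± 0.09), Pecam1 (-0.48 ± 0.10), Vwf (-0.70 ± 0.42) and Mmrn2 (-0.61 ± 0.36, all SD, n = 2) had the smallest p in that list. Flt1 (0.35 ± 0.41), Sox18 (0.14 ± 0.17) and Cldn5 (0.05 ± 0.91, all SD, n = 2) had means above 0. The summed normalised intensity of the 20 was 18239 and 20073 in the Atg7F/F extracts, against 20975 and 33937 in the Atg7+/+ extracts. Averaged over the list, the log2 ratio was -0.19 in replicate 1 and -0.42 in replicate 2, and that of Adcy4 was -0.84 and -0.79 in the same replicates. Their part in the Adcy4 difference was not tested. In RNA from a whole culture, fewer cells of a type and less RNA per cell cannot be told apart.

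Adcy1 and Adcy2 had ratios away from 0 in replicate 1 and near 0 in replicate 2. Adcy1, a cyclase stimulated by calcium and calmodulin, had raw intensities in Cy5 of 149 and 109 in Atg7F/F, against 203 and 111 in Atg7+/+, and in Cy3 of 98.9 and 78.3 in Atg7F/F, against 141 and 78.2 in Atg7+/+. The replicate 1 extract of Atg7+/+ was the highest and that of Atg7F/F lay between it and the replicate 2 extracts, which were alike in the genotypes, and the log2 ratios were -0.55 and -0.54 in replicate 1 but -0.01 and -0.02 in replicate 2. Adcy2, a further beta-gamma responsive cyclase, had -0.87 in replicate 1 and 0.06 in replicate 2. After normalisation its replicate 1 extract of Atg7+/+ was again the highest (log2 signal 8.03), but that of Atg7F/F was the lowest (7.16). A second Adcy2 probe gave -0.72 and 0.09, so the replicates disagreed on both probes.

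The other 5 measured cyclases had means between -0.20 (Adcy7) and 0.08 (Adcy6). Adcy6, a calcium-inhibited cyclase of the type found in heart and vessels, had log2 ratios of -0.28 and -0.23 on the arrays with Atg7F/F in Cy5 and 0.38 and 0.44 on those with Atg7F/F in Cy3. Its sign followed the dye and not the genotype. The same was true of Adcy3 and Adcy9, so 3 of the 33 genes showed this, against 13.9% of all genes. The mean of a dye swap cancels such an effect, and the means of these genes were 0.06 (Adcy3), 0.08 (Adcy6) and 0.06 (Adcy9). Adcy5, the close relative of Adcy6, had a mean of -0.05 ± 0.02 (SD, n = 2).

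Of 6 guanylyl cyclase genes 3 were measured, and 2 of them (Gucy1b3 and Gucy2c) were above 0 on all 4 arrays, against 10.6% of all genes. Gucy1a3 and Gucy1b3, now named Gucy1a1 and Gucy1b1, encode the alpha and beta subunits of soluble guanylyl cyclase, the receptor for nitric oxide. For Gucy1b3 the raw intensity in Cy5 was 328 and 279.5 in Atg7F/F, against 306 and 266 in Atg7+/+, and in Cy3 it was 247 and 212 in Atg7F/F, against 221 and 207 in Atg7+/+. The raw ranges overlap, but Atg7F/F was the higher within each replicate and dye. Ratios were 0.06, 0.19, 0.13 and 0.13, with a mean of 0.12 ± 0.01 (SD, n = 2) and an unadjusted p of 0.232 in limma. The other 2 probes of Gucy1b3 had means of 0.04 and 0.07 and were not above 0 on all 4 arrays.

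The alpha subunit gene gave a different picture. Gucy1a3 had raw intensities in Cy5 of 323.5 and 133 in Atg7F/F, against 159.6 and 135 in Atg7+/+, and in Cy3 of 197 and 94.5 in Atg7F/F, against 105 and 106 in Atg7+/+. Of the 4 extracts only Atg7F/F replicate 1 was high. The log2 ratios were 1.13 and 0.81 in replicate 1 but -0.0005 and -0.07 in replicate 2. The second probe, the one printed above, had 0.64 and 0.58 for replicate 1, and 0.03 and 0.20 for replicate 2. It lies 7 bases from the first on mm9, and the mean of the first probe was 0.47 ± 0.71 and that of the second 0.36 ± 0.35 (SD, n = 2). On both probes the difference came from replicate 1.

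Gucy2c, the receptor for guanylin known from the intestine, was dim. Its raw intensity in Cy5 was 162 and 186 in Atg7F/F, against 149 and 128 in Atg7+/+, and in Cy3 it was 114 and 151 in Atg7F/F, against 106 and 94.3 in Atg7+/+. The genotypes did not overlap in either dye, and the ratios were 0.07, 0.17, 0.31 and 0.75. Their mean of 0.33 ± 0.29 (SD, n = 2) had an unadjusted p of 0.102 in limma. Local background was between 41 and 49.5 in Cy3 and between 74 and 93.5 in Cy5 for the genes described here, and the scanner software's processed signals gave 0.77 for Gucy2c.

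Of 18 phosphodiesterase enzymes 11 were measured, with means from -0.12 (Pde10a) to 0.30 (Pde1b) and a median of 0.08. Above 0 on all 4 arrays were 4 (Pde1b, Pde3a, Pde3b and Pde4a), against 10.6% of all genes. Below 0 on all 4 was 1 (Pde4d), against 9.93%. Pde4a hydrolyses cAMP alone. It had raw intensities in Cy5 of 749.8 and 607 in Atg7F/F, against 597 and 558 in Atg7+/+, and in Cy3 of 570.5 and 539 in Atg7F/F, against 494 and 513 in Atg7+/+. The genotypes did not overlap in either dye, although the ratios were small when Atg7F/F was in Cy5 (0.09 and 0.01) and larger when it was in Cy3 (0.41 and 0.41). The mean was 0.23 ± 0.03 (SD, n = 2) with an unadjusted p of 0.0693 in limma.

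Pde3a and Pde3b hydrolyse cAMP and are inhibited by cGMP, and Pde3a is the form known from vascular smooth muscle. Raw intensities of Pde3a in Cy5 were 135 and 135 in Atg7F/F, against 124 and 124 in Atg7+/+, and in Cy3 they were 87.1 and 92.3 in Atg7F/F, against 85.7 and 85.4 in Atg7+/+. Raw intensities of Pde3b in Cy5 were 114 and 115 in Atg7F/F, against 101 and 104 in Atg7+/+, and in Cy3 they were 71.6 and 77.0 in Atg7F/F, against 68.3 and 68.0 in Atg7+/+. Both probes were dim, and the raw values of the genotypes did not overlap in either dye, although the normalised extract signals did. Mean ratios were 0.08 ± 0.0049 for Pde3a and 0.10 ± 0.02 for Pde3b (SD, n = 2), with array values of 0.12, 0.04, 0.09 and 0.05 for Pde3a and 0.05, 0.17, 0.09 and 0.08 for Pde3b. The size of these ratios depended on the processing: an offset of 0 in place of 50 gave 0.14 for Pde3a and 0.25 for Pde3b, and the processed signals gave 0.28 and 0.60.

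Pde4d, another cAMP-specific enzyme, was well above background in 3 of 4 channels of Atg7F/F and in 4 of 4 of Atg7+/+. Its raw intensity in Cy5 was 104 and 94.9 in Atg7F/F, against 100.2 and 105 in Atg7+/+, and in Cy3 it was 67.4 and 62.6 in Atg7F/F, against 64.6 and 66.3 in Atg7+/+. These ranges overlap, and the log2 ratios were -0.03, -0.03, -0.03 and -0.25, with a mean of -0.09 ± 0.08 (SD, n = 2).

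The Pde1 genes encode enzymes stimulated by calcium and calmodulin. Pde1b had raw intensities in Cy5 of 551 and 713 in Atg7F/F, against 383 and 761.5 in Atg7+/+, and in Cy3 of 386 and 577 in Atg7F/F, against 271 and 567 in Atg7+/+. Replicate 2 was brighter than replicate 1 in both genotypes, and the difference lay mainly in replicate 1, with ratios of 0.54 and 0.49 there and 0.09 and 0.06 in replicate 2. The mean was 0.30 ± 0.31 (SD, n = 2). Pde1a showed the reverse: its log2 ratio was -0.17 in replicate 1 and 0.67 in replicate 2. All 4 Pde1a probes did so, with values between -0.17 and -0.03 in replicate 1 and between 0.45 and 0.70 in replicate 2, and the printed probe gave -0.05 and 0.51. These probes lie at different places in the gene, but they share the RNA extracts and are not replicates.

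Of the other 5 enzymes, Pde2a, which cGMP stimulates, had a mean of 0.22 ± 0.28 (SD, n = 2), with 0.02 in replicate 1 and 0.42 in replicate 2. Pde10a, which hydrolyses both messengers, had -0.12 ± 0.13. The cAMP-specific Pde4b, Pde7a and Pde8a had means of 0.04, 0.02 and -0.05. None of these had one sign on all 4 arrays. Myomegalin, the anchor for Pde4d at the Golgi and centrosome, had a mean of 0.04 ± 0.14 (SD, n = 2), and its other 2 probes had means of -0.004 and -0.13.

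**Figure D2:**
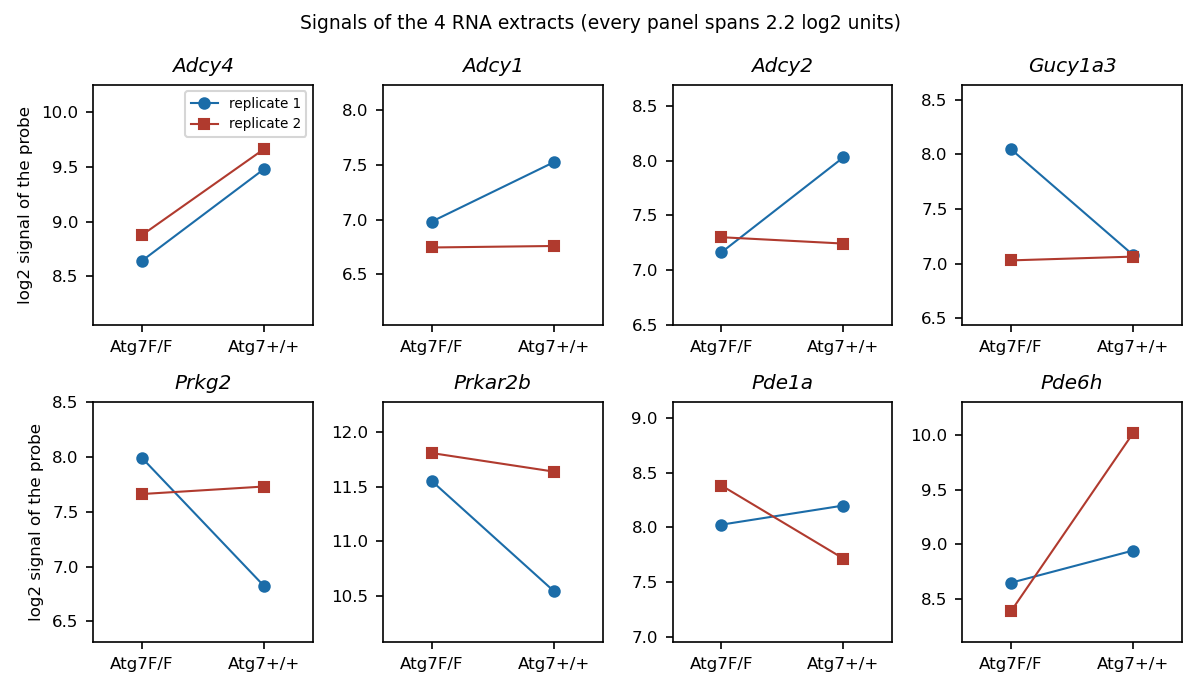
Log2 signal of the probe that stands for each of 8 genes (vertical axis, loess and Aquantile normalised, mean over the 2 dyes) in the Atg7F/F extract on the left and the Atg7+/+ extract on the right. Lines join the extracts hybridised together. Every panel spans the same range of log2 units. Both lines slope alike for Adcy4, whereas in the panels of Adcy2, Gucy1a3, Prkg2, Prkar2b and Pde1a they do not.

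Of 6 photoreceptor phosphodiesterase subunits 3 were measured. Pde6h encodes the inhibitory gamma subunit of the cone enzyme and was the gene with the lowest mean. The brighter of its 2 probes had raw intensities in Cy5 of 475 and 323.5 in Atg7F/F, against 564.5 and 1132 in Atg7+/+, and in Cy3 of 349 and 250.3 in Atg7F/F, against 425 and 961 in Atg7+/+. The genotypes did not overlap in either dye, and the Atg7+/+ extract of replicate 2 was far above the other 3. Replicate 1 had log2 ratios of -0.34 and -0.25 and replicate 2 had -1.52 and -1.74, with a mean of -0.96 ± 0.94 (SD, n = 2) and an unadjusted p of 0.0822 in limma.

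The second Pde6h probe, at chr6:136911943-136912002, 189 bases further along, gave another result. In Cy5 the raw intensity was 313 and 239 in Atg7F/F, against 186 and 342 in Atg7+/+, and in Cy3 it was 222 and 177 in Atg7F/F, against 145 and 279 in Atg7+/+. The genotypes overlap, with ratios of 0.63 and 0.81 for replicate 1, -0.32 and -0.50 for replicate 2, and a mean of 0.15 ± 0.80 (SD, n = 2). Pde6h was the only 1 of the 13 measured genes with several probes whose probe means lay at least 0.5 log2 units apart. On both probes replicate 2 was lower than replicate 1 by more than 1 log2 unit. Pde6d, a prenyl-binding chaperone found in many tissues, had a mean of 0.07 ± 0.22. Pde6g, the rod gamma subunit, was well above background in 2 of 4 channels of Atg7F/F and 4 of 4 of Atg7+/+ and had a mean of -0.09 ± 0.14 (SD, n = 2).

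**Figure D3:**
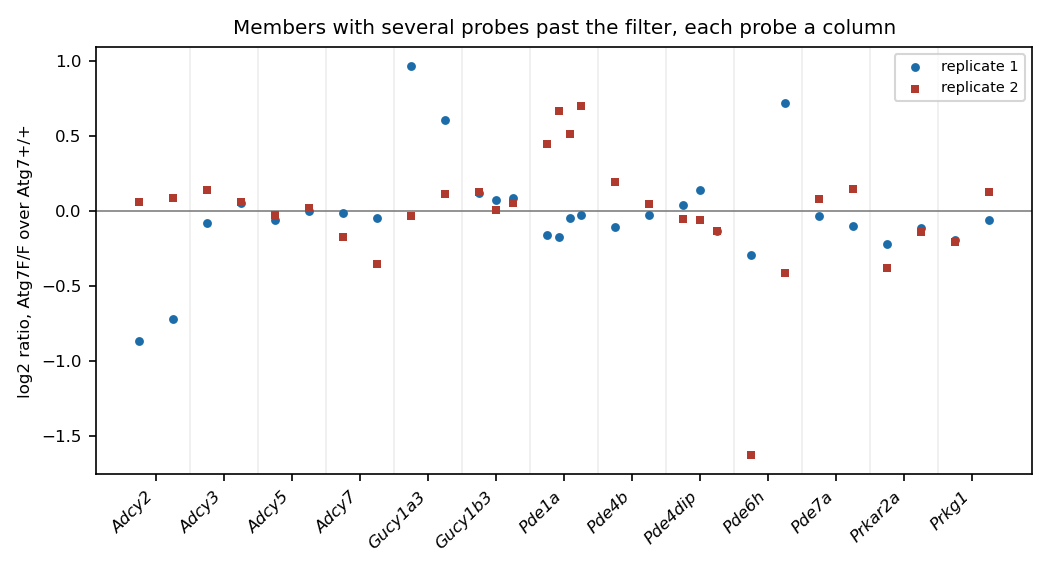
Log2 ratio of Atg7F/F over Atg7+/+ (vertical axis) of every probe past the filter for the 13 genes with several such probes, each column a probe. Circles are replicate 1 and squares replicate 2. The 4 probes of Pde1a and the 2 of Adcy2 repeat one pattern, while the 2 probes of Pde6h lie at different heights.

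Of 6 protein kinase A subunits 5 were measured. On all 4 arrays 1 (Prkar2b) was above 0, against 10.6% of all genes, and 2 (Prkaca and Prkar2a) below 0, against 9.93%. Prkaca encodes the main catalytic subunit. Raw intensity in Cy5 was 5881 and 4732 in Atg7F/F, against 5918 and 5289 in Atg7+/+, and in Cy3 it was 3776 and 3681 in Atg7F/F, against 4312 and 3825 in Atg7+/+. The ratios were -0.13, -0.11, -0.03 and -0.03, with a mean of -0.07 ± 0.06 (SD, n = 2), and with median centring in place of loess the mean was 0.02. Its direction depended on the normalization, which moved the median of all genes by 0.04.

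Prkar2a and Prkar2b encode the type II regulatory subunits, which hold the kinase inactive until cAMP binds and tie it to anchoring proteins. Prkar2a had raw intensities in Cy5 of 539.5 and 244 in Atg7F/F, against 614 and 351 in Atg7+/+, and in Cy3 of 410.2 and 196 in Atg7F/F, against 470.1 and 291 in Atg7+/+. Replicate 2 was dimmer in both genotypes, and within each replicate Atg7F/F was the lower. The ratios were -0.32, -0.11, -0.36 and -0.40, with a mean of -0.30 ± 0.11 (SD, n = 2), and limma p-values of 0.0489 before and 1.00 after adjustment. The other Prkar2a probe had a mean of -0.13 ± 0.02.

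For Prkar2b the genotypes differed mainly in replicate 1. Its raw intensity in Cy5 was 3688 and 3710 in Atg7F/F, against 1808 and 3481 in Atg7+/+, and in Cy3 it was 2668 and 2972 in Atg7F/F, against 1334 and 2825 in Atg7+/+. After normalisation the Atg7F/F extracts had log2 signals of 11.55 and 11.81, against 10.55 and 11.64 for Atg7+/+, so only replicate 1 of Atg7+/+ was low. Replicate 1 had ratios of 0.94 and 1.07, and replicate 2 had 0.08 and 0.26. The mean was 0.59 ± 0.59 (SD, n = 2) with an unadjusted p of 0.0945 in limma. Prkacb, the second catalytic subunit, and Prkar1b, a regulatory subunit best known from neurons, had means of -0.03 ± 0.08 and -0.05 ± 0.11 (SD, n = 2).

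Both cGMP-dependent kinases were measured. Prkg1 carries the relaxing effect of nitric oxide in vascular smooth muscle. Its raw intensity in Cy5 was 451.5 and 309 in Atg7F/F, against 470 and 374 in Atg7+/+, and in Cy3 it was 303 and 226 in Atg7F/F, against 362 and 298 in Atg7+/+. Within each replicate and dye Atg7F/F was the lower, and the ratios were -0.21, -0.17, -0.14 and -0.27. The mean of -0.20 ± 0.01 (SD, n = 2) had an unadjusted p of 0.0941 in limma. The second Prkg1 probe, 3846 bases away, did not show it: its mean was 0.03 ± 0.13 (SD, n = 2).

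Prkg2 is the membrane-bound form, known from gut and bone. In Cy5 the raw intensity was 308 and 191 in Atg7F/F, against 129 and 226 in Atg7+/+, and in Cy3 it was 189.7 and 157 in Atg7F/F, against 92.3 and 169 in Atg7+/+. Replicate 1 of Atg7F/F was the highest extract and replicate 1 of Atg7+/+ the lowest. Replicate 1 had ratios of 1.19 and 1.15 and replicate 2 had -0.07 and -0.07, with a mean of 0.55 ± 0.88 (SD, n = 2) and an unadjusted p of 0.216 in limma.

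The replicates disagreed for several of these genes. They had opposite signs for 12 of 33 genes, against 54.5% of all genes, and lay at least 0.5 log2 units apart for 7 (Adcy1, Adcy2, Gucy1a3, Pde1a, Pde6h, Prkar2b and Prkg2), against 12.5% of all genes. Marker lists of other cells also differed between replicates. Markers of fibroblasts averaged -0.26 in replicate 1 and 0.30 in replicate 2 over 11 measured genes, but not all moved that way. Ly6a had -0.53 and 1.28, whereas Cd34 had -0.36 and -1.02 and Dpt had -0.57 and -0.09. The 7 measured markers of neural and Schwann cells averaged 0.47 in replicate 1 and 0.16 in replicate 2 and did not move as one. Ngfr had 2.73 in replicate 1 and -1.06 in replicate 2 and Sox10 had 1.45 and -0.48, whereas S100b had -0.74 and 0.89, Map2 had -0.72 and 0.17, and Tubb3 had 0.20 and 1.88. The summed normalised intensity of the 7 was 9289 and 12822 in Atg7F/F, against 9340 and 8623 in Atg7+/+. The 9 smooth muscle markers had a median of -0.14 and averaged -0.01 in replicate 1 and -0.20 in replicate 2. Below 0 on all 4 arrays were 3, against 9.93% of all genes, and 0 were above, against 10.6%. Tagln (-0.19 and -0.27), Acta2 (-0.18 and -0.16), Synpo2 (-0.18 and -0.17) and Smtn (-0.16 and -0.18) were alike in both replicates. Cnn1 (0.40 and -0.40) and Myh11 (0.25 and -0.54) were not. The sign of Smtn followed the dye, with -0.47 and -0.43 when Atg7F/F was in Cy5 and 0.14 and 0.08 when it was in Cy3. The part of these marker lists in the replicate differences of the 7 genes was not tested.

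**Figure D4:**
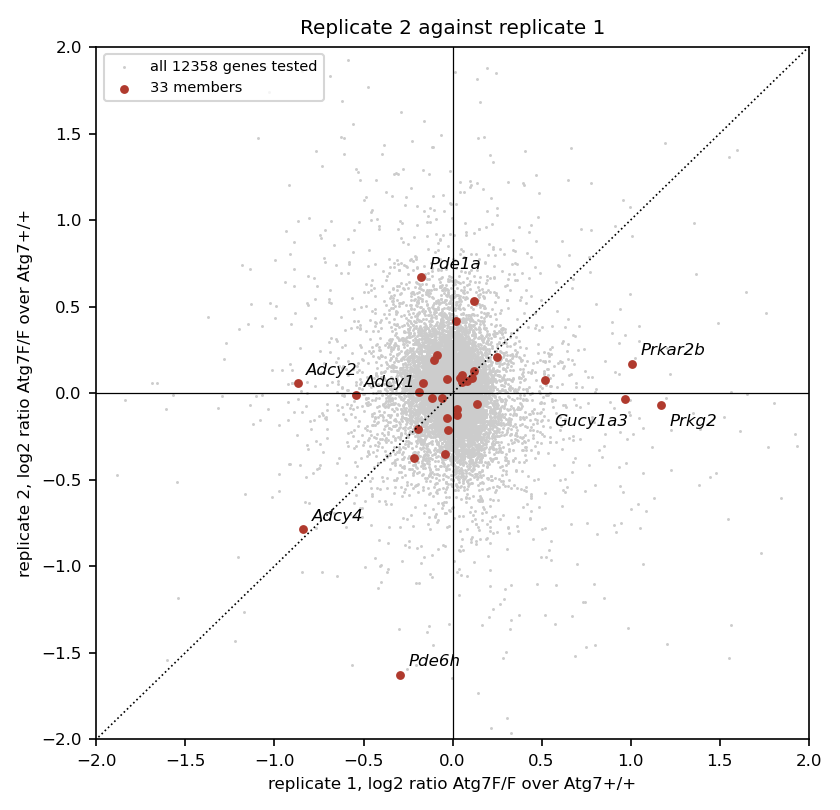
Log2 ratio of Atg7F/F over Atg7+/+ in replicate 2 (vertical axis) against replicate 1 (horizontal axis) for all 12358 genes tested (grey) and the 33 measured genes described here (red). The dotted line marks equal ratios, and 33 genes beyond 2 log2 units are outside the axes. Adcy4 lies near the dotted line at -0.84 and -0.79, and the other labelled genes, with replicates at least 0.5 log2 units apart, lie away from it.

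Other genes of the pathway were read from lists. Of 27 measured genes upstream of the cyclases or downstream of the messengers, 0 passed the adjusted test in limma, with a median of 0.01. On all 4 arrays 3 were above 0, against 10.6% of all genes, and 6 below, against 9.93%. Abcc4, a transporter that exports cAMP and cGMP from the cell, had ratios of 0.88, 0.56, 0.92 and 0.97, a mean of 0.83 ± 0.16 (SD, n = 2) and an unadjusted p of 0.00338. The other Abcc4 probe, well above background in 3 of 4 channels of Atg7F/F and 2 of 4 of Atg7+/+, had a mean of 0.05. Popdc2, a membrane protein that binds cAMP, had a mean of -0.42 ± 0.12. Gnai2 and Gnai1, the alpha subunits of G proteins that inhibit adenylyl cyclase, had means of -0.28 ± 0.04 and -0.26 ± 0.10 (SD, n = 2). Other Gnai1 probes well above background in every channel had means of -0.07 and -0.34. The size for Gnai2 depended on the dye, with -0.55 and -0.49 when Atg7F/F was in Cy5 and -0.06 and -0.02 when it was in Cy3.

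Anchoring proteins and cAMP-responsive genes had medians near 0. Of 16 measured A-kinase anchoring proteins, which hold protein kinase A at its sites in the cell, 0 passed the adjusted test, with a median of -0.05. On all 4 arrays 1 was above 0, against 10.6% of all genes, and 2 below, against 9.93%. The smallest p were those of Akap5 (-0.32 ± 0.24), Akap1 (-0.19 ± 0.07), Ezr (-0.24 ± 0.25) and Akap11 (0.15 ± 0.10, all SD, n = 2). Other probes well above background in every channel had means of -0.07 and -0.01 for Akap1 and -0.03 for Akap11. Of 17 measured genes of the CREB family and its targets, 0 passed, with a median of 0.03. On all 4 arrays 2 were above 0, against 10.6% of all genes, and 1 below, against 9.93%. Cebpb (0.32 ± 0.36), Atf1 (0.20 ± 0.18), Dio2 (0.17 ± 0.16) and Junb (0.17 ± 0.17) had the smallest p there.

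Promoters were searched for binding motifs in a RefSeq table of GRCm38.p6, from 250 bases before to 50 after each start. It held 78 promoters of 38 of the 49 genes. The first 5 letters of the cAMP response element, TGACG, read on both strands, occurred in 23.1% of these promoters, against 20.8% of all 32851 promoters. Counted per gene with any of its promoters, it occurred in 16 of 38 (42.1%), against 23% of all 27025 genes in the table. The full element TGACGTCA, which contains the shorter one, occurred in 2.56% of the promoters, against 1.79% of all. Per gene it occurred in 2.63%, against 2.03%, at Prkar1a alone among the 38. The share of promoters counts the same Prkar1a element in 2 overlapping promoters. The antioxidant response element TGACNNNGC, which can overlap the first motif, occurred in 10.3% of the promoters, against 12.4% of all, but per gene in 21.1%, against 14%. The per-gene shares rest on unequal numbers of promoters, 78 for 38 genes here and 32851 for 27025 in the table, and for the last motif the direction depends on which is counted. A match is a match of letters and no evidence of binding.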

How the data were processed

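Total RNA was labelled with Cy3 or Cy5 and hybridised to Agilent two-colour arrays, and the dye of each genotype was taken from the labels. The authors' deposited scanner files, which Agilent Feature Extraction 10.1.1.1 wrote according to the submitters' processing notes, hold mean and local background intensity per spot, not normalized. Per the file headers, processed intensity and the log10 of Cy5 over Cy3 stand beside them. The authors' deposited value table holds log2 ratios of the processed signals, Atg7F/F over Atg7+/+, with column medians of 0.199, -0.094, 0.081 and -0.037 and no further centring, as a comparison with the scanner values showed.

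Intensities were corrected with normexp (offset 50), which pulls ratios of dim spots towards 0, and normalised by loess within arrays, with control spots at weight 0, in limma 3.58.1 and R 4.3.3. Each ratio was set as Atg7F/F over Atg7+/+ and averaged over both dye orientations. Probes with a non-uniformity outlier (36) were left out, and so were probes not well above background in the channels of at least 1 genotype on all 4 arrays, which left 17100 probes. Of 41174 probes 25097 were named through RefSeq accessions. The brightest probe stood for each of 12358 genes. limma's moderated test against 0 was two-sided and adjusted by Benjamini-Hochberg over all genes, with a threshold of 0.05. Every p here is limma's. Its variance combines the spread between 2 replicates with a prior over all genes, which gave 2.18 of the 3.18 degrees of freedom. Beyond that prior it measures only the spread between 2 replicates, or between the 4 arrays in the fit that treated the pair as random.

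Each array holds the extracts of one replicate number, so the replicate block is part of the test by construction. Extracts that share a number deviated from the mean of their genotype with a correlation of 0.18 across genes. They were measured on the same arrays, so this value cannot show whether the cultures were paired. All arrays lay on 1 slide and had 1 scan day, so no such batch could be fitted.

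The members, the gene lists and the tests were chosen with earlier results of these data known. Values on every array are given for members past the test, with one sign on all 4 arrays, with a mean of at least 0.5 log2 units either way, or with probe means that far apart. The rule also named up to 4 genes of smallest p in each other list. These are given by their means or replicate values (Abcc4, Gnai2 and Smtn by array). Those of the macrophage, fibroblast, neural and epithelial lists are given only in part. Adcy2, Gucy1a3, Pde1a, Flt1, Sox18, Cldn5 and the marker genes given per replicate were added after their values were seen. Alternatives changed background correction, normalisation, the filter, the probe per gene, the prior and the block. The code was tested on simulated data. Figures were drawn with matplotlib 3.10.9.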

Additional observations from a re-analysis of the deposited data

How the results depend on the processing

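With both replicates kept, 0 of the 33 genes passed limma's adjusted test under every alternative run. The counts with one sign on all 4 arrays, 7 above and 7 below 0, moved by over 1.5 times in 1 case, to 4 above 0 with median centring in place of loess. Prkaca then turned to 0.024, and the other 14 named members kept their direction. Over all genes tested, the fit without the replicate block called 1 gene higher in Atg7F/F and the fit that took all 4 arrays and treated the pair as random called 7 higher and 2 lower, none of them among the 33; the cause was not tested. With 1 replicate left out, one-sign counts cover only 2 arrays and were 11 to 13 above 0 and 13 to 15 below 0, more by construction, and no test could be made. The median of the 33 was then -0.0245 without replicate 2 and 0.0577 without replicate 1, and Prkg2 had 1.171 without replicate 2 and turned to -0.0687 without replicate 1.

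Ratios of dim probes depended on the processing. With processed signals centred on the array median, an alternative chosen after seeing the data, Gucy2c was 0.77, Pde3b 0.60 and Prkg2 0.94, against 0.33, 0.10 and 0.55. That setting changes background, offset and dye normalization at once; an offset of 0 alone gave 0.52, 0.25 and 0.87, and no background subtraction alone 0.37, 0.13 and 0.51. Adcy1 was -0.49 and Pde4d -0.28 with the processed signals as deposited. The choice of the brightest probe decided the value of Pde6h, whose other probe had a mean of 0.15.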
